A study of Mus musculus with 2 samples.

Results

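The cytosolic ribosome of the mouse is built from ribosomal RNA and a fixed set of ribosomal proteins, and chromatin at the genes of these proteins was examined in DNase-seq data of the adrenal gland. Genes were taken by name: every protein-coding gene of GENCODE release M21 whose symbol starts with Rpl or Rps followed by a digit, plus Rpsa, without the Rps6k kinases and without symbols holding -ps. The rule took 83 of 21951 protein-coding genes. Of these, 74 encode the core proteins of the ribosome (43 of the large and 31 of the small subunit), 8 encode paralogues of core proteins (Rpl3l, Rpl7l1, Rpl10l, Rpl22l1, Rpl36al, Rpl39l, Rps27l and Rps27rt), and Rps19bp1 encodes no ribosomal protein but a regulator of the deacetylase Sirt1 that binds Rps19.

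Ribosomal proteins are needed in equal amounts in every growing cell, and their genes are among the most strongly transcribed of any tissue. Their promoters classically lack a TATA box, and transcription starts at a cytosine within a run of pyrimidines, so that the messenger RNA carries a 5' terminal oligopyrimidine (TOP) tract through which growth signals control its translation. Many of the genes are short, hold small nucleolar RNA (snoRNA) genes in their introns, and have left large numbers of retrocopies in the genome.

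In DNase-seq, nuclei are digested with DNase I and the ends that the enzyme leaves in accessible DNA are sequenced. Peaks mark open chromatin, and footprints are short stretches inside it that were cut less than their surroundings. The data came from 1 group of 2 samples, labelled biological replicates 1 and 2: adrenal glands of B6CASTF1/J females (CAST/EiJ crossed with C57BL/6J, first generation), aged 10 days, with 3 females named per sample and no treatment. With 1 group there is no contrast between conditions, so the ribosomal protein genes are set beside other genes by counts and medians, with no p-value, and the replicates show the spread.

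Replicate 1 had 98813 peaks and 339116 footprints, and replicate 2 had 55135 and 241536. Peak height is a signal normalised by the authors, and within each sample all heights were whole multiples of a step (0.00668 in replicate 1, 0.00620 in replicate 2), so that the median height of the core genes stood for 1207 and 606 steps. If a step is 1 tag, counting error at that height would be 2.88% and 4.06%, but the read depth itself is not given in the sources used here. A promoter peak overlapping between the replicates (a shared promoter peak) was present at 5 of 7 adrenal cortex markers, 4 of 6 chromaffin cell markers, 2 of 3 fat markers, 1 of 3 kidney markers, 0 of 2 liver markers and 0 of 3 blood markers. Over all protein-coding genes the share was 63.4%, and the counts for cortex, chromaffin and fat markers are near it. These counts therefore do not show which cell types were present. Any part of fat cells in the values below was not tested.

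Sequences of 4 core genes are shown because these had the most bases near the start that were footprinted in both replicates. Each line runs 5' to 3' along the gene in GRCm38 (mm10), from 100 bp upstream of the annotated start to 20 bp downstream of the start base, so the last 21 bases are the beginning of the first exon. Capitals mark bases footprinted in both replicates. The windows are chr10:23787255-23787375 on the minus strand for Rps12, a protein of the small subunit's beak, and, on the plus strand, chr9:106429354-106429474 for Rpl29, chr17:56613316-56613436 for Rpl36 and chr7:3703893-3704013 for Rps9, a protein at the mRNA entry channel.
Rps12: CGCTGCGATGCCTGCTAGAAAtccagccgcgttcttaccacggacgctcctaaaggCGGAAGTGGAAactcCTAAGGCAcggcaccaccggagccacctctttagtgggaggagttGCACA
Rpl29: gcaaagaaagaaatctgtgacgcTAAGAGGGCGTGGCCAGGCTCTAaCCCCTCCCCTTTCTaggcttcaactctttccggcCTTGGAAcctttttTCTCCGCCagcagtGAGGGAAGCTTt
Rpl36: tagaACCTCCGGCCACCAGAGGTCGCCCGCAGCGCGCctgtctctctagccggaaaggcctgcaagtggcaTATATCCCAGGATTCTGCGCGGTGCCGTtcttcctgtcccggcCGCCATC
Rps9: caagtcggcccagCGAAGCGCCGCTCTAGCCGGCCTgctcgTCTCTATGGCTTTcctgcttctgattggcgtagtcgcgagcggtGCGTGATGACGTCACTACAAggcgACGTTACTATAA

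In Rps12 the capitals include CGGAAG, the core of the site read by ETS factors. In Rps9 a footprint from 15 bp upstream to 4 bp downstream of the start base holds the whole cAMP response element TGACGTCA. In Rpl29 capitals cover 23 and 14 bases in a row between 77 and 40 bp upstream, and a further stretch covers the start base.

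A second set is shown because its genes carry a 10-base palindrome that is known as a promoter element, and of the motifs searched it had the largest ratio between its share in core ribosomal protein genes and in all protein-coding genes (values below). Here capitals mark this palindrome only. The windows are chr17:28328468-28328588 for Rpl10a, which forms the mobile L1 stalk, and chr11:68901483-68901603 for Rpl26, both on the plus strand, and chr17:33824542-33824662 for Rps28, on the minus strand.
Rpl10a: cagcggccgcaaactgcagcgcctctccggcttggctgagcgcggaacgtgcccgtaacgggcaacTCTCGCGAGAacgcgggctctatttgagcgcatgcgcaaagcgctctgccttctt
Rpl26: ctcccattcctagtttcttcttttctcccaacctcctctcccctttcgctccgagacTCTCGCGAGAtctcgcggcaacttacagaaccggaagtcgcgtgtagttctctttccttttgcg
Rps28: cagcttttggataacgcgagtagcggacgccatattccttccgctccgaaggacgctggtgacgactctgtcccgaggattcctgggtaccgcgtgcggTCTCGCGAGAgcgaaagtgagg

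A shared promoter peak, defined as overlapping peaks of both replicates within 1 kb of any annotated start, was present at 79 of 83 genes (95.2%) and at all 74 core genes. Among all protein-coding genes the share was 63.4%. Open promoters are usual at CpG-rich starts. Among the 4682 protein-coding genes whose ratio of observed to expected CpG was at or above the core median of 0.853 the share was 97.3%. The count of the ribosomal protein genes is near that share, although this set is by its definition richer in CpG than the core genes as a group. All 78 mitochondrial ribosomal protein genes also had a shared promoter peak.

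The genes without a shared peak were 4 of the 8 paralogues. Rpl10l and Rpl39l, autosomal copies best known from the testis, and Rps27rt, a retrogene of Rps27, had no peak in either replicate. Rpl3l, whose product replaces Rpl3 in striated muscle, had a single peak with a height of 0.588 in replicate 1, centred 4726.5 bp into the gene beside an internal start, and none in replicate 2. The other paralogues had a shared peak, above the median height of coding genes with one in both replicates. Heights were 14.1 and 6.24 in replicates 1 and 2 at Rpl36al, the autosomal copy of the X-linked Rpl36a, and 12.9 and 5.79 at Rpl22l1, a paralogue of Rpl22. At Rps27l, a p53 target, they were 9.35 and 5.05, and at Rpl7l1, a paralogue of Rpl7 with a role in large subunit assembly, 6.55 and 3.87. The start of Mgat2 lies within 1 kb of Rpl36al on the other strand, and the peak cannot be assigned to either gene. Rps19bp1 had heights of 5.56 and 2.75.

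The median height of the highest promoter peak over the 74 core genes was 8.07 in replicate 1 and 3.76 in replicate 2. The medians over all 13927 protein-coding genes with a shared promoter peak were 5.96 and 3.11, and 60 and 58 of the 74 core genes lay above them. The mitochondrial ribosomal protein genes were in between, with medians of 6.94 and 3.61. Core genes therefore sat above the middle of the range but not at its top: the median percentile among coding genes with a shared peak was 66.9 and 63.4, 29 and 26 genes lay in the top 25%, and 22 did so in both replicates. Small subunit genes had medians of 8.78 and 4.07 against 7.70 and 3.74 for large subunit genes, with overlapping ranges (3.70 to 13.8 and 2.99 to 15.2 in replicate 1).

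**Figure D1:**
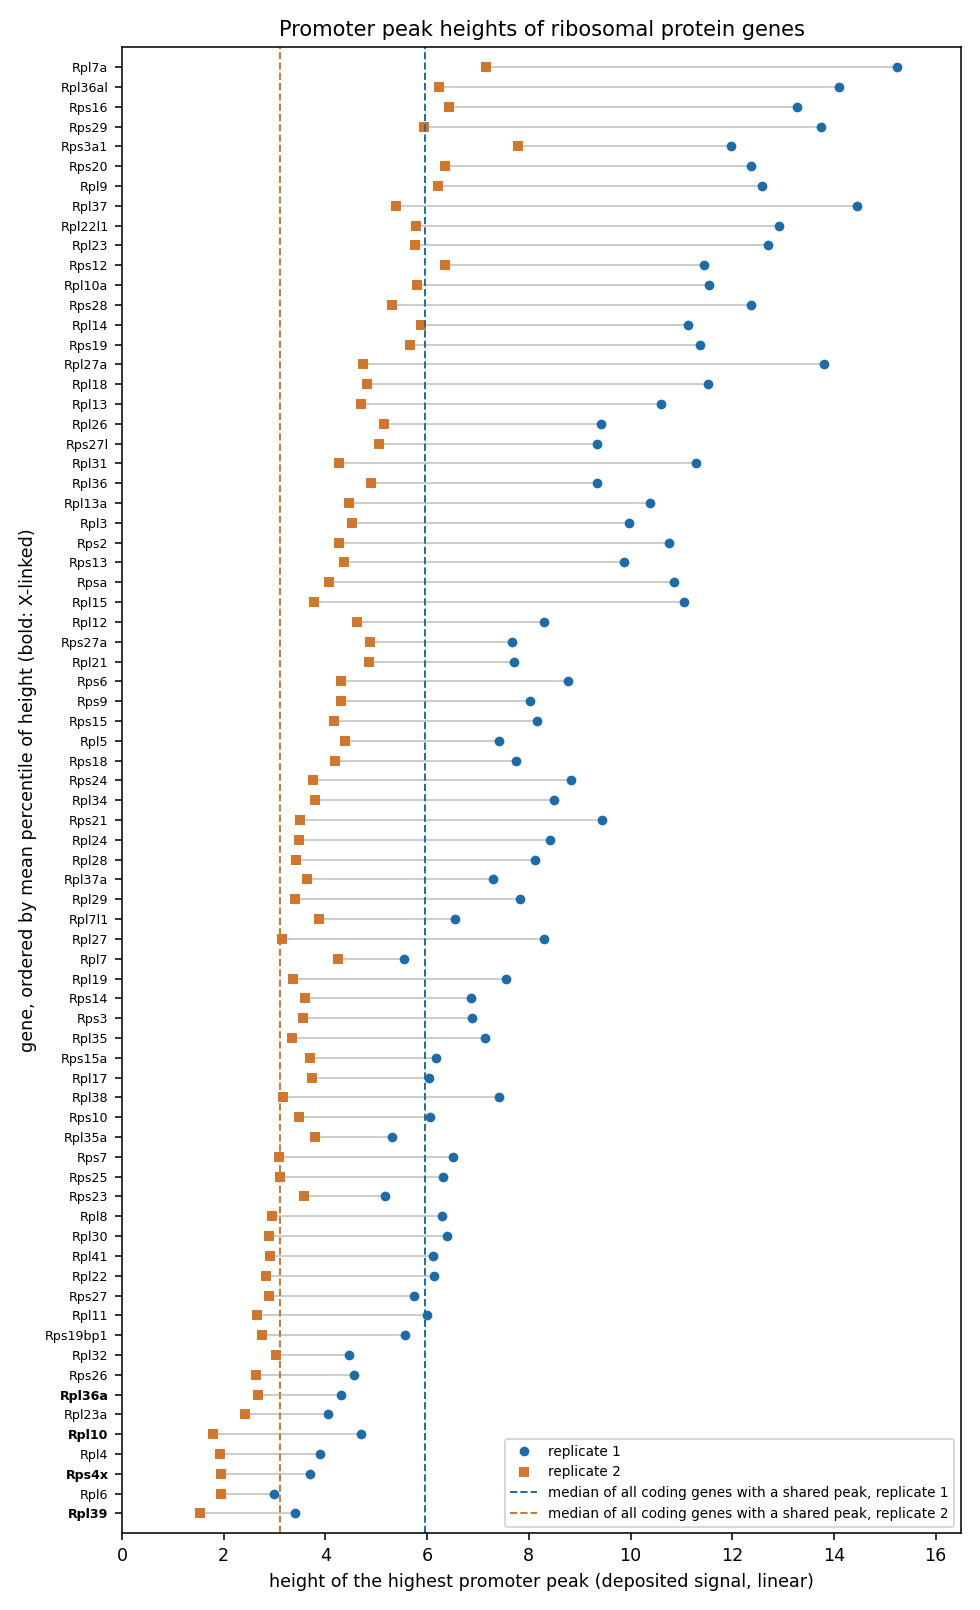
Height of the highest promoter peak (deposited signal, linear axis) in replicate 1 (circles) and replicate 2 (squares) for 74 of the 79 genes with a shared promoter peak, ordered by mean percentile; dashed lines are the medians of all coding genes with a shared promoter peak. Every circle lies to the right of its square, and the 4 X-linked core genes (bold) are among the 8 lowest.

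Rpl7a, a large subunit gene of the surfeit gene cluster, had the highest mean percentile, with heights of 15.2 and 7.16. Its peak spanned chr2:26910581-26910800 in replicate 1 and ended 40 bp farther downstream in replicate 2, and the divergent gene Med22 starts within 1 kb. Rps16, whose tail reaches the peptidyl-tRNA site, had heights of 13.3 and 6.44. Rps29, a zinc-binding protein of the head, had 13.8 and 5.94, and Rps3a1, on the platform of the small subunit, had 11.97 and 7.78, the highest value in replicate 2. Rps20 had 12.4 and 6.36, and Rpl9 had 12.6 and 6.22 with Lias starting nearby. With Rpl36al these were among the 8 highest genes, which all lay at percentile 89.3 or above in both replicates.

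At the other end Rpl39 had heights of 3.41 and 1.54, Rpl6 had 2.99 and 1.95, and Rps4x had 3.70 and 1.95. Rpl4, which reaches into the peptide exit tunnel, had 3.89 and 1.93, with Zwilch starting nearby, and Rpl10, which joins the large subunit last in its maturation, had 4.69 and 1.80. Rpl23a at the tunnel exit had 4.06 and 2.42, Rpl36a had 4.30 and 2.67, and Rps26 at the mRNA exit had 4.55 and 2.63. In both replicates all 8 lay below the median of coding genes with a shared peak, and their percentiles ran from 20.7 to 40.9.

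All 4 X-linked core genes (Rps4x, Rpl10, Rpl36a and Rpl39) belonged to this low group. Their medians were 4.001 and 1.87, against 8.23 and 3.79 for the 70 autosomal core genes. The same held for the X chromosome as a whole: the medians of the 428 X-linked protein-coding genes with a shared peak were 3.03 and 1.55, against 6.11 and 3.17 for autosomal ones. Within the X-linked genes Rps4x ranked at percentiles 62.9 and 71.3, Rpl10 at 78.9 and 65.8, Rpl36a at 73.9 and 93.3 and Rpl39 at 56.9 and 49.8. The samples are from females, and these lists do not separate the 2 X chromosomes.

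Among functional groups, Rpl5 and Rpl11, which with 5S ribosomal RNA form the particle that can inhibit Mdm2, had heights of 7.42 and 4.39 (Rpl5) and 6.00 and 2.65 (Rpl11). Of the proteins that line the exit tunnel, Rpl17 had 6.03 and 3.74, and Rpl4 and Rpl39 are given above; Rpl22, put on the same list, had 6.13 and 2.83, although the bacterial tunnel protein L22 corresponds to Rpl17 and not to Rpl22. The 16 genes mutated in Diamond-Blackfan anaemia, a failure of red cell formation, had medians of 8.57 and 3.78, close to those of all core genes. The 29 core genes that host a snoRNA gene (57 snoRNA genes in all) had medians of 9.87 and 4.36, and the 45 without one had 7.82 and 3.71. The ranges of hosts and other genes overlapped almost fully (2.99 to 15.2 and 3.70 to 13.8 in replicate 1). Another protein-coding gene started within 1 kb of 14 of 74 core genes (18.9%), against 12.7% of all protein-coding genes, and heights were alike with and without such a neighbour (medians 7.71 and 3.99 with, 8.14 and 3.72 without).

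Related genes outside the name rule were open as well. All 6 remaining ribosomal protein genes had a shared promoter peak, among them Rplp0, Rplp1 and Rplp2 of the stalk that recruits elongation factors, Fau, whose protein is made as a fusion to a ubiquitin-like protein, and Rack1, a scaffold on the head of the small subunit. Rplp0 was the highest of these with heights of 15.2 and 7.07 and Rack1 the lowest with 5.60 and 3.04. The 14 listed translation factor and other genes with TOP mRNAs had medians of 11.8 and 5.15, all 14 above the coding median in replicate 1 and 12 in replicate 2. The 20 listed genes of ribosome biogenesis and RNA polymerase I had medians of 7.79 and 3.37, with 14 and 11 above the coding median.

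Heights in the replicates had a Spearman correlation of 0.846 over the 74 core genes and 0.942 over the 13927 coding genes. Both are given as a description, since the genes of a sample share its library. The 2 values are not directly comparable, because heights of the core genes span a narrower range (2.99 to 15.2 against 0.180 to 39.9 in replicate 1). All 79 genes with a shared peak were higher in replicate 1, as were 96.9% of all coding genes with one. The median log2 ratio of replicate 1 to replicate 2 was 1.02 over the core genes and 0.92 over coding genes with a shared peak, and 1.06 over the 3109 other coding genes of like height (both heights within the middle 50% of the core genes' heights). Ratios ranged up to 1.67, and Rpl15 at 1.55 (heights 11.05 and 3.77) and Rpl27a at 1.54 (13.8 and 4.74) were among the 4 largest. The smallest were 0.39 at Rpl7 (5.55 and 4.25), 0.49 at Rpl35a (5.30 and 3.79), 0.54 at Rps23, a protein of the decoding centre (5.18 and 3.57), and 0.55 at Rpl32 (4.46 and 3.04). With 1 library per replicate, a difference at a gene cannot be told apart from a difference between the libraries.

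The highest peak was a little wider at core genes, with median widths of 240 bp and 340 bp against 220 bp and 300 bp over coding genes with a shared peak. The narrowest by mean width were Rpl9 (220 bp and 120 bp), Rpsa, also known as the laminin receptor (220 bp and 140 bp), Rpl23 (180 bp and 200 bp) and Rps9 (220 bp and 160 bp). The widest were Rps14 on the platform (460 bp and 620 bp), Rpl27 (400 bp and 600 bp) and Rps25 (240 bp and 700 bp), followed by Rpl10 (320 bp and 560 bp). At 69 of 74 core genes the highest peaks of the replicates overlapped. At Rpl4, Rpl18, Rpl19, Rpl39 and Rps19 they did not, so that the heights of these 5 genes describe different peaks in the replicates; at Rps19 the centres lay at -260.5 bp in replicate 1 and 229.5 bp in replicate 2, counted from the start.

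Positions are given from the annotated start of the principal transcript, negative upstream. The median centre of the highest peak of the core genes lay at -14 bp in replicate 1 and at 49.5 bp in replicate 2, against -29.5 bp and -4.5 bp for coding genes with a shared peak and -40.5 bp and -22.5 bp for those of like height. The peak covered the start base at 59 and 58 of 74 core genes (79.7% and 78.4%), against 62.5% and 64.9% of coding genes with a shared peak and 79.5% and 82.1% of mitochondrial ribosomal protein genes. Where the highest peaks overlapped, the centre was farther downstream in replicate 2 at 48 core genes (69.6%) and farther upstream at 14, with a median shift of 30 bp. Over 13292 coding genes it was farther downstream at 58.2%, with a median shift of 10 bp. Measured from the start nearest to the peak in place of the principal start, the median of all members in replicate 2 turned from 35.5 bp to -7.5 bp. The first exon of the principal transcript was short, with a median of 93.5 bp against 227 bp for coding genes with a shared peak. The centre of the highest peak lay beyond it at 2 core genes in replicate 1 and 22 in replicate 2. The same count is not given for other genes, so it cannot be said whether these counts are unusual.

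Base by base, the share of bases with an FDR of at most 0.001 showed an opening that was fuller near the start than in coding genes with a shared peak, and narrower at the far edges. At the start base 73 and 72 of 74 core genes passed this limit (98.6% and 97.3%), against 86.4% and 85.0% of coding genes with a shared peak and 100% of mitochondrial ribosomal protein genes in both replicates. Over the first 20 bp from the start base the share of bases in genes of like height was 94.3% and 94.2%. From 200 to 219 bp downstream the share of bases was 95.9% and 93.8% in core genes, 77.5% and 79.2% in coding genes with a shared peak and 89.3% and 91.1% in those of like height. From -400 to -381 bp it was 43.1% and 38.6% in core genes, with 41.9% and 39.1% in coding genes with a shared peak and 53.3% and 50.3% in those of like height. From 800 to 819 bp downstream it had dropped to 10.9% and 6.89% in core genes, against 23.4% and 21.4%, and the mitochondrial ribosomal protein genes were like the core genes there (10.6% and 3.91%).

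**Figure D2:**
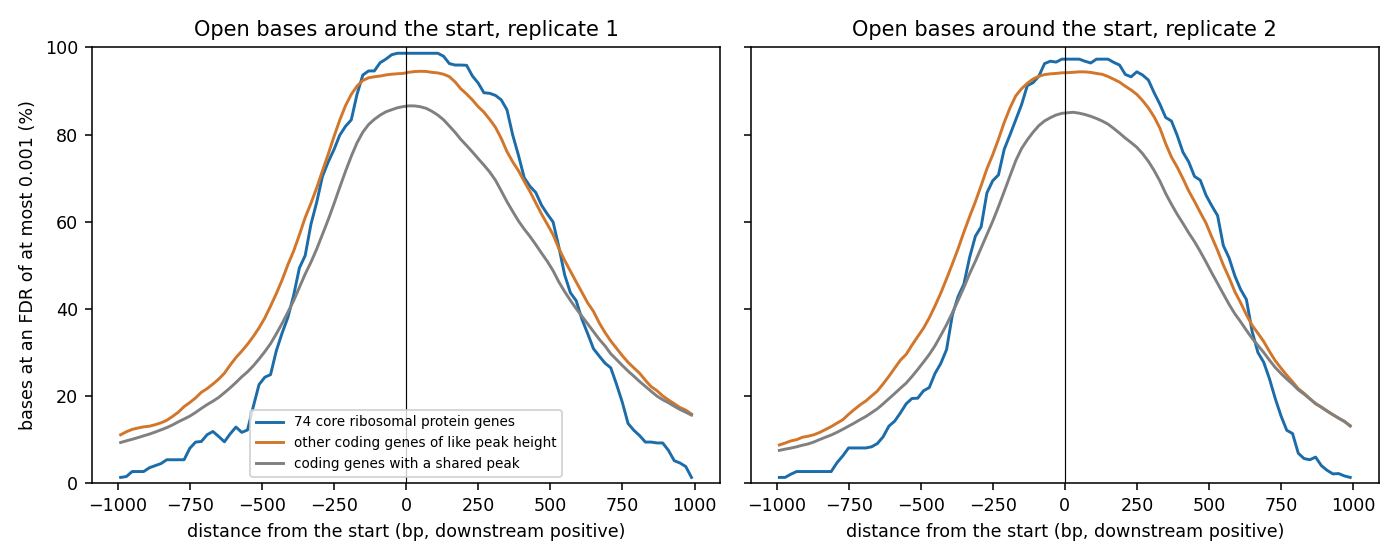
Share of bases (%) at an FDR of at most 0.001 by distance from the annotated start (bp, bins of 20 bp), for the core ribosomal protein genes, other coding genes of like peak height, and all coding genes with a shared promoter peak, 1 panel per replicate. The core genes are above both lines from about the start to 400 bp downstream and below both 800 bp away on either side.

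Footprints were counted as shared where footprints of both replicates overlapped, and only bases in both were used. A shared footprint lay within 100 bp of the start at 71 of 83 genes and at 66 of 74 core genes (89.2%), against 46.7% of all protein-coding genes and 72.7% of those with a shared peak. It was 86.2% for genes of like height and 94.9% for mitochondrial ribosomal protein genes, so the count is near the background of equally open promoters. Per core gene the median was 4 footprints in replicate 1 and 3 in replicate 2, with median lengths of 13 bp and 11 bp. The 8 core genes without a shared footprint were Rpl7, Rpl12, Rpl35, Rpl41, Rps10, Rps19, Rps25 and Rps26. At all 8 the highest peak was centred more than 100 bp from the annotated start in both replicates. None of the 8 was among the 59 of 74 core genes whose highest peak covered the start base in replicate 1. Some other core genes also had both centres more than 100 bp away and had shared footprints. Examples are Rpl6 (centres at 109.5 bp and 299.5 bp) and Rpl10 (-111.5 bp and -211.5 bp), with 4 shared stretches each. Their highest peaks in replicate 1 covered the start base. At Rpl37 (-164.5 bp and -204.5 bp) the highest peaks missed the start base in both replicates, and 2 shared stretches were present. Whether peak position bears on the lack of a shared footprint was not tested.

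The genes with the most shared stretches within 100 bp were Rpl29 with 8, Rpl10a with 7, and Rps12 with 6, followed by Rps7, Rps9, Rps16 and Rps27 with 5 each. A stretch is the overlap of 1 footprint of each replicate, so a footprint can be split into several stretches. Rpl29 had 6 footprints in each replicate and Rpl10a had 5, fewer than their stretches, so the order is not one of separate footprints. The number of stretches rose little with height, with Spearman correlations of 0.255 in replicate 1 and 0.181 in replicate 2 over the 74 core genes. Rpl29, with the most stretches, had heights of 7.82 and 3.40, slightly below the core medians. Rpl6, with the lowest peak in replicate 1, still had 4 stretches.

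**Figure D3:**
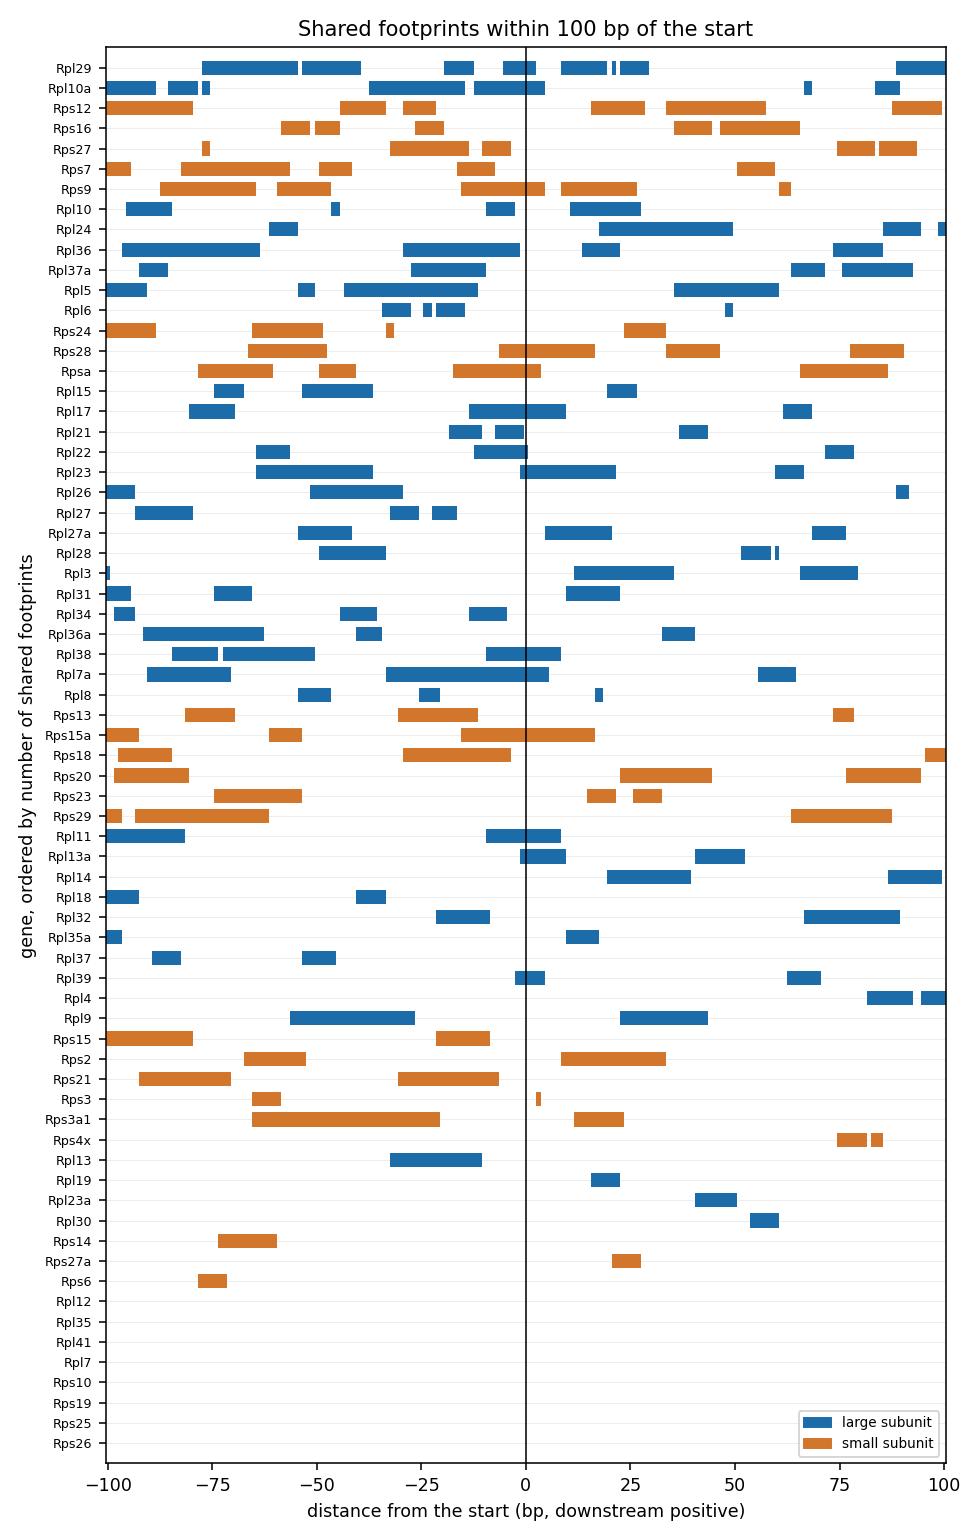
Bases footprinted in both replicates within 100 bp of the annotated start (bp, downstream positive) in 69 of the 74 core genes, ordered by number of stretches; blue bars are large subunit genes and orange bars small subunit genes. Stretches lie on both sides of the start with no position common to all genes, and the 8 lowest lines are empty.

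The start base itself was footprinted in both replicates at 16 core genes (21.6%), against 13.2% of coding genes with a shared peak, 17.4% of those of like height and 20.5% of mitochondrial ribosomal protein genes. They included Rpl7a, Rpl10a, Rpl11, Rpl13a, Rpl17, Rpl22, Rpl23, Rpl29, Rpl38, Rpl39, Rps9, Rps15a, Rps28 and Rpsa. With the paralogues Rpl7l1 and Rpl36al, 18 of all 83 genes had one. In replicate 1 alone the count over all 83 genes was 30 and in replicate 2 alone 23.

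Downstream of the start the ribosomal protein genes differed more from other genes. In the bases from 100 bp up to 200 bp downstream, 37 of 74 core genes (50%) had a shared footprint, against 22.9% of coding genes with a shared peak and 27.0% of those of like height, with 42.3% in mitochondrial ribosomal protein genes. Of the 63 shared stretches of core genes there, 34 lay wholly beyond the first exon of the principal transcript, a count not given for the other lists. In the same distance upstream the shares were 52.7% for core genes and 54.8% for genes of like height, with 30.8% for mitochondrial ribosomal protein genes. From 100 to 51 bp upstream core genes were above both (68.9%, against 61.8% and 53.8%). In the 50 bp before the start core genes had fewer than genes of like height (62.2% against 68.6%) and fewer than mitochondrial ribosomal protein genes (76.9%).

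**Figure D4:**
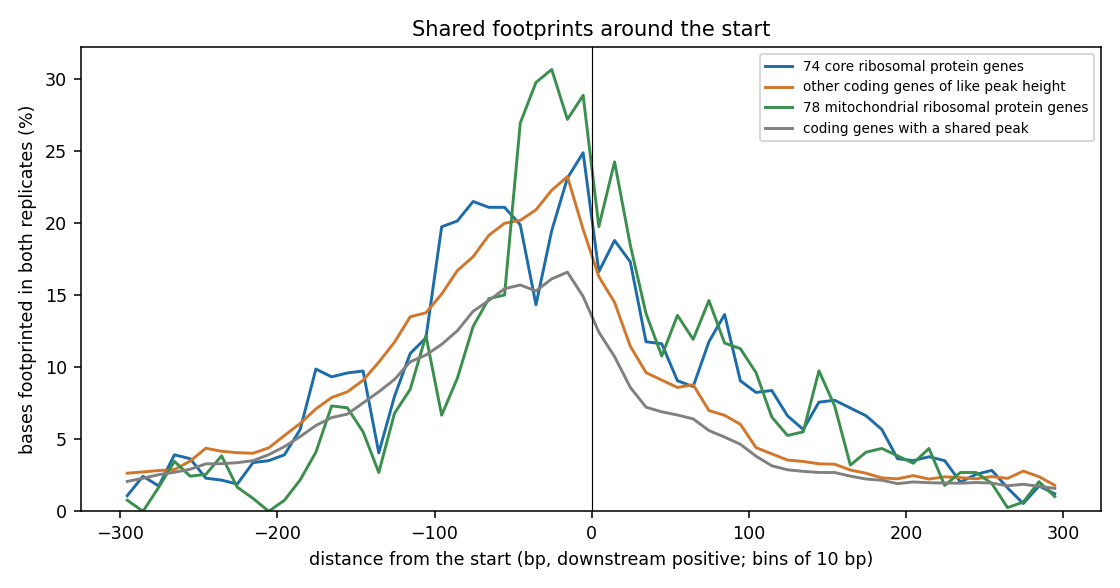
Share of bases (%) footprinted in both replicates by distance from the annotated start (bp, bins of 10 bp) for core and mitochondrial ribosomal protein genes, other coding genes of like peak height and all coding genes with a shared promoter peak. Core and mitochondrial ribosomal protein genes are both above the other lines from 100 to 200 bp downstream, and the mitochondrial genes stand highest in the 50 bp before the start.

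Motif matches were counted on both strands in the 300 bp from 250 bp before the start to 50 bp from the start base on, for 11 motifs, with the share of all protein-coding genes beside each. A match is a string of letters in the mm10 sequence and not a measured site. The ETS core CGGAAG was present at 44 of 74 core genes (59.5%), against 20.6% of all protein-coding genes, 37.9% of genes of like height and 57.7% of mitochondrial ribosomal protein genes. Of its 72 matches 17 (23.6%) had their centre in a footprint of both replicates, a share like the 21.8% over coding genes with a shared peak.

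The palindrome printed in capitals in the lines of Rpl10a, Rpl26 and Rps28 was present at 7 of 74 core genes (9.46%), against 0.602% of all protein-coding genes, 1.22% of genes of like height and 1.28% of mitochondrial ribosomal protein genes. Its centre was footprinted in both replicates at 5 of the 7, among them these 3 and Rpl17. At Rps6, the small subunit protein phosphorylated by S6 kinase, it was footprinted in replicate 1 only, and at Rpl4, where it lies 243 bp upstream, in neither. The first base of the match lay 43 bp upstream at Rpl26, 34 bp at Rpl10a, 6 bp at Rpl17 and Rps6, and 1 bp at Rps28. Over coding genes with a shared peak 64.9% of the centres of this palindrome were footprinted in both replicates, so footprints at it were common in other genes too.

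The NRF1 motif was present at 5 core genes, among them Rpl10a, Rpl37a, Rps15 and Rpsa, a share of 6.76% against 6.13% of all protein-coding genes, 9.36% of those with a shared peak and 12.9% of those of like height. All 6 of its sites were footprinted in both replicates, against 85.2% of its matches in coding genes with a shared peak. The cAMP response element TGACGTCA was also at 5 core genes (6.76% against 2.50% of all protein-coding genes and 3.93% of genes of like height), with footprints of both replicates at Rpl13, Rpl27a and Rps9, of replicate 1 only at Rps29, and none at Rpl26. These 3 of 5 (60%) compare with 78% of its matches in coding genes with a shared peak. The ZNF143 motif was at 7 core genes (9.46% against 2.72% of all protein-coding genes, 4.95% of genes of like height and 8.97% of mitochondrial ribosomal protein genes). It was footprinted in both replicates at 2 of these, Rpl6 and Rps26 (28.6%, near the 22.2% in coding genes with a shared peak). The YY1 motif GCCATNTT was at 10 core genes (13.5% against 6.36% of all protein-coding genes and 10.6% of genes of like height) and at 20.5% of mitochondrial ribosomal protein genes.

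The SP and KLF and the NF-Y motifs were less frequent at core genes than in coding genes with a shared peak, while the SP and KLF motif was slightly more frequent than in all protein-coding genes. The SP and KLF motif GGGCGG was at 50% of core genes, against 45.3% of all protein-coding genes, 63.5% of coding genes with a shared peak and 70.1% of those of like height. The NF-Y motif CCAAT was at 28.4%, against 38.6%, 37.8% and 40.6% of the same lists. In core genes 1 of its 29 matches was footprinted in both replicates, against 21.7% of matches in coding genes with a shared peak. Of mitochondrial ribosomal protein genes, 48.7% had the SP and KLF motif, much like the core genes, and 34.6% had the NF-Y motif. The E-box CACGTG, read by Myc among others, was at 8 core genes (10.8%), against 7.72% of all protein-coding genes and 10.8% of genes of like height. It was footprinted in both replicates only at Rps20 (12.5% of its matches, against 23.6% in coding genes with a shared peak). The motif CAAGGTCA of SF1 (Nr5a1), the master regulator of the adrenal cortex, was present at 1 core gene (1.35% against 1.34%).

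**Figure D5:**
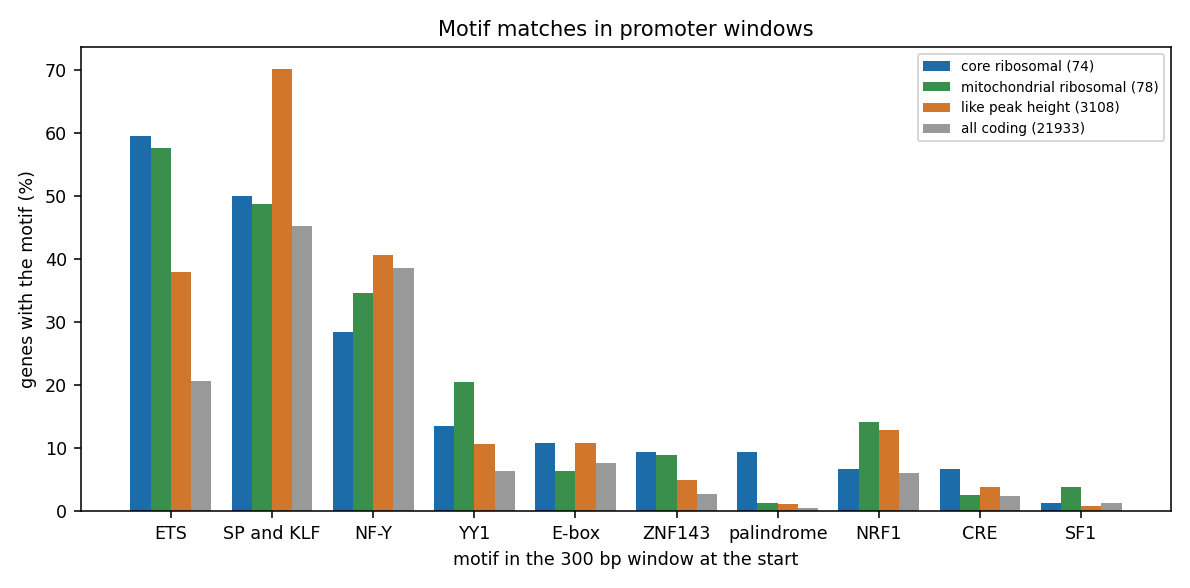
Share of genes (%) with each motif in the 300 bp window at the annotated start, for core and mitochondrial ribosomal protein genes, other coding genes of like peak height and all protein-coding genes (number of genes in parentheses); the bar named palindrome is the palindrome of the Rpl10a group. ETS is at 59.5% of the core genes, and the palindrome at 9.46% against at most 1.28% in the other groups.

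No core gene had the TATA box TATAAA between 35 and 20 bp upstream of the annotated start on its own strand, against 2.24% of all protein-coding genes, 0.969% of those with a shared peak and 0.386% of those of like height, so this count is near that of equally open promoters. The letters occurred on either strand elsewhere in the window at 8 core genes (10.8%). This compares with 12.6% of all protein-coding genes, 7.15% of those with a shared peak and 6.05% of those of like height. Of the 9 matches in core genes, 6 were footprinted in both replicates, against 11.3% of matches in coding genes with a shared peak. Among the 6 were 1 each at Rpl3, Rps20 and Rps28 and 2 at Rps2. The 6 lay from 137 bp upstream to 37 bp downstream of the start base. A TOP tract, a cytosine followed by at least 4 pyrimidines, began exactly at the annotated start base at 8 core genes (10.8%, against 2.28% of all protein-coding genes), among them Rpl4, Rpl32, Rpl36, Rpl37, Rpl37a, Rps21 and Rps24. Allowing 10 bp on either side, 33 core genes (44.6%) had one, against 30.8%. In mitochondrial ribosomal protein genes the shares were in between, with 5.13% at the start base and 35.9% with 10 bp allowed. The start base was a cytosine at 24 core genes (32.4%) and at 17.5% of all protein-coding genes. At the other core genes the annotated start is thus not the first base of a TOP tract in this annotation, and positions above are exact only to the annotation.

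Away from promoters, at least 1 shared peak more than 1 kb from every annotated start lay within 50 kb of 66 of 83 genes and of 63 of 74 core genes (85.1%), against 65.1% of all protein-coding genes and 74.9% of those with a shared promoter peak. The share was 74.2% for genes of like height and 79.5% for mitochondrial ribosomal protein genes. The median was 2 such peaks per core gene and 1 per gene with a shared promoter peak. Rpl19 had the most with 11, followed by Rpl14 with 8 and Rpl10a with 7. These peaks are not assigned to the genes, since other genes lie within the same distance.

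Peaks were rare at copies of the genes. Of 292 annotated pseudogenes named as copies of ribosomal protein genes, 6 (2.05%) had a shared peak within 1 kb of a start, against 2.42% of all 9940 processed pseudogenes. These were Rpl5-ps2, Rpl29-ps2, Rpl34-ps1, Rpl35a-ps3, Rpl38-ps1 and Rps15a-ps2. Rpl29-ps2, the highest with 5.75 and 2.81, has the start of Akr1e1 within 1 kb, and Rpl35a-ps3 has that of Rab44. None of the 6 genes annotated as coding but named -ps had a shared peak, and Rpl9-ps1 had a peak of 0.495 in replicate 1. Reads that match a gene and its copies equally well may have been placed or dropped in ways not given in the sources used here, so a copy without a peak was not detected as open rather than shown to be closed.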

How the data were processed

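DNase-seq peaks, footprints and per-base FDR values of 2 samples of 1 group were used as the authors deposited them, each file made from 1 sample on mm10 per the file headers and listings. Aligner, peak caller and footprint caller: not given in the sources used here. Peak height is a signal the authors normalised, 1 value per peak. The authors' FDR lists hold adjusted p-values per stretch of bases below 0.05, and each footprint carries the deposited p-value of 0.01. All reads were aligned to the C57BL/6J sequence of mm10, so CAST/EiJ alleles may be undercounted at variant bases.

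Starts came from GENCODE release M21. The principal start was that of the APPRIS principal transcript, then of the best transcript support level, then the most 5'. The highest peak of the shorter list within 1 kb of any start gave height, width and centre. Overlap meant at least 1 bp. Sequence and motifs came from GRCm38. Python 3.11.15, numpy 2.4.6 and bedtools 2.31.1 were used. The functions were checked on simulated data: shared promoter peaks were recovered at 200 of 200 planted genes and a planted motif at 200 of 200 positions. Members, gene lists and motifs were chosen with earlier results of these data known, and the comparison genes of like height and of high CpG after the data were seen. Named genes were the members without a shared peak, the paralogues and Rps19bp1, and the 8 highest and 8 lowest by mean percentile. Also named were the 4 at each end of ratio and width and the 6 with the most shared footprint stretches (with ties). The X-linked, 5S and tunnel genes and ribosomal proteins outside the rule completed the list. Genes named at motifs, at the start base, in counts of distal peaks and among copies were chosen after their values were seen. Values of a few genes that these rules would name are not reported here, in text or figures; all counts and medians include them.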

Additional observations from a re-analysis of the deposited data

How the results depend on the processing

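The number of members with a shared promoter peak (79) was 79 with the longer peak list, with 500 bp or 2 kb in place of 1 kb, and with the 50% highest peaks, 76 from the most 5' start only (without Rpl17, Rps2 and Rps10), 70 with a reciprocal overlap of 50%, and 79 to 80 in a single replicate. Over these settings and with the 74 core genes only, the median height ranged from 7.92 to 8.12 in replicate 1 and from 3.76 to 3.97 in replicate 2, and the median log2 ratio from 1.01 to 1.02. Members with a footprint within 100 bp numbered 71, and 64 within 50 bp, 76 within 200 bp and 66 from the most 5' start. Members with a distal peak numbered 66, and 48 within 25 kb, 78 within 100 kb and 75 with the longer list. Members with a footprint over the start base numbered 18, 14 with a reciprocal overlap of 50%, and 23 to 30 when either replicate was left out. The centre of the highest peak in replicate 2 moved from 35.5 bp to -7.5 bp with the start nearest to the peak. Motif counts stayed within 1.5 times of the main value except the E-box, which fell from 8 to 3 members in the window from 100 bp before the start, and SF1, which went from 1 to 2 members with the most 5' start. Retrocopies with a shared peak numbered 6, and 1 within 500 bp, 16 within 2 kb and 13 with the longer list. The cause of these shifts was not tested. Heights and centres are given per replicate, so leaving 1 out gives the value of the other, and the ratio needs both. No paired analysis was possible because there is only 1 group.

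The main limits are 2 libraries of different height and peak number, a depth that is not given, annotated starts that may differ from the starts used in this tissue, and a whole gland in which the cell types cannot be separated. Few members carry the rarer motifs, so a share such as 7 of 74 changes by 1.35 percentage points with each gene.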
